A study of Sus scrofa with 8 samples.

Results

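AP-1 is the family of dimeric transcription factors built from FOS, JUN, ATF and MAF proteins. A row was looked for under each of 10 gene names in the expression table of a pig heart RNA-seq study, and 6 of the 10 were found among 18975 listed genes: *FOS*, *FOSL1*, *JUNB*, *ATF3*, *BATF* and *MAFF*. No row carried the name *FOSB*, *FOSL2*, *JUN* or *JUND*, and these 4 genes were not analysed here. Counts and medians over these names are given as a description, since the choice of names was not blind to these data.

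The hearts came from male pigs aged 6 months of 2 breeds, Tibetan and Yorkshire. Each breed had a highland group, kept at about 3000 m, and a lowland group, kept at about 100 m. The groups are called TH (Tibetan, highland), TL (Tibetan, lowland), YH (Yorkshire, highland) and YL (Yorkshire, lowland). There were 2 libraries in each group, 8 in all. The YL libraries were placed by title, breed and source, although their description field points to the TL file, and every YL value rests on that placement. Each library held equal RNA from 4 pigs, so every value is an average over animals and the spread between libraries is expected to be smaller than that between single pigs. Breed and altitude were the compared factors, and no pig was genetically altered or given an agent.

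AP-1 proteins bind DNA only in pairs. JUN proteins pair with each other or with FOS proteins, whereas FOS proteins need a JUN partner. *FOS*, *JUNB* and *ATF3* are immediate early genes, whose transcription starts within minutes of a stimulus without new protein being made, and whose messages decay quickly. In heart muscle they are known to be induced by stretch, ischaemia and adrenergic stimulation.

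The values are FPKM, counts of sequenced fragments divided by the length of a gene's exons and by the depth of its library, which may be compared between genes because they are divided by transcript length. Between 15686825 and 26722609 reads fell on genes in a library. In heart muscle markers (8 of 10 found, *MYH7* and *MYL2* not among them) the summed level was 20051 to 35968 FPKM in 7 libraries and 13406 FPKM in YL2. The 2 skeletal muscle markers found of 6 summed to at most 0.0373 FPKM. One library stood apart: 10 of 11 kidney markers were found, and they summed to 4453 FPKM in YL2 against 0.247 to 17.2 FPKM in the other 7 libraries. Values without YL2 are therefore given for each member in the breed comparisons that use it, and for some members in the other comparisons.

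*FOS* was the member with the widest gap between the lowest Tibetan and the highest Yorkshire library. *FOS* (ENSSSCG00000002383, chromosome 7, 104293656 to 104297121, Sscrofa10.2) encodes the founding FOS protein. It was at 53.8 and 85.5 FPKM in TH and at 50.9 and 42.0 FPKM in TL. It was at 3.40 and 5.91 FPKM in YH and at 4.30 and 5.98 FPKM in YL. Every Tibetan library was above every Yorkshire library, and the lowest Tibetan value was 7.02 times the highest Yorkshire value. The ratio of group means was 15.0 for TH over YH and 9.03 for TL over YL. The latter ratio rests on the FPKM of TL1, which is uncertain, as described below. From scaled reads, the second measure described there, the log2 difference was 3.83 in TH vs YH and 4.22 in TL vs YL.

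**Figure D1:**
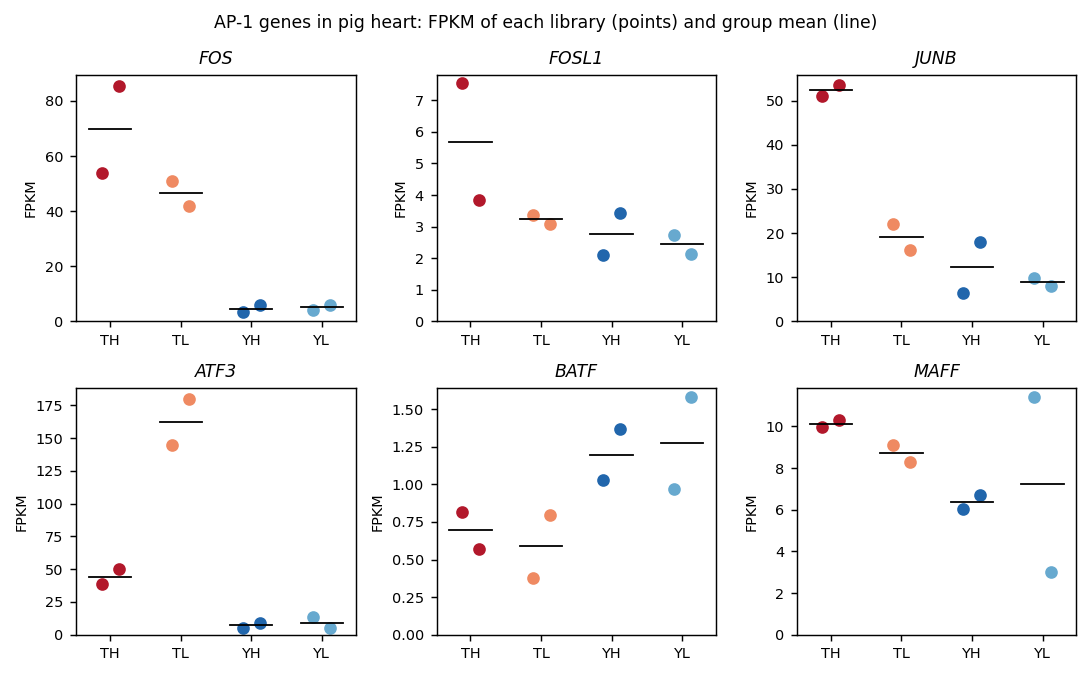
FPKM of the 6 AP-1 genes (vertical axes, linear and starting at 0, with a scale of their own for each gene) in the groups TH, TL, YH and YL; points are libraries and lines are means of 2 libraries. *FOS* and *ATF3* lie higher in all 4 Tibetan libraries than in all 4 Yorkshire libraries, *BATF* lies lower in all 4, and the libraries of *FOSL1*, *JUNB* and *MAFF* overlap between breeds.

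Genes were tested with limma on log2(FPKM + 1) over all 8 libraries, and a call required a Benjamini-Hochberg adjusted p under 0.01 over all 11913 genes tested and a log2 fold change above 1 in size. On this scale, which understates the change of low genes, *FOS* was higher in Tibetan than in Yorkshire hearts by 3.30 ± 0.24 (SE) averaged over the altitudes, with a limma adjusted p of 0.00552. It was the only member called in that comparison, 1 of 6, against 0.0504% of all genes tested. Of the other 5 genes called, 4 were listed at 0 in at least 6 of the 8 libraries. The exact two-sided permutation test over the 8 libraries gave p = 0.0286 for *FOS*, which is the smallest p that 4 libraries against 4 can give.

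Within each altitude the same gene did not reach the call. The difference was 3.64 ± 0.33 (SE) in TH vs YH with a limma adjusted p of 0.0201, and 2.96 ± 0.33 in TL vs YL with an adjusted p of 0.120. The breed difference at high altitude exceeded that at low altitude by 0.69 ± 0.47, an interaction with a limma adjusted p of 0.601. From scaled reads, the second measure described with the TL1 library, its sign turned, to -0.38 (0.889), so no direction is given for it. Without YL2 it was 0.49 from FPKM. The call for the averaged breed difference was lost when FPKM were scaled by median ratios (limma adjusted p = 0.0229), when no filter on low genes was used (0.0247), when scaled reads replaced FPKM (0.0272), and when any 1 of TH1, TH2, TL1, TL2, YH1 or YH2 was left out (0.0247 to 0.0627). Without YL2 it was 3.40 with an adjusted p of 0.00995, and over all alternatives the difference lay between 2.35 and 4.02.

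The deposited table holds a second measure of each gene, reads scaled by the authors to a common library size, and for *FOS* this measure and FPKM parted in 1 library. Scaled *FOS* reads divided by *FOS* FPKM gave 46.0 to 51.5 in 7 libraries and 201 in TL1. TL1 had 10252 scaled *FOS* reads beside 50.9 FPKM, whereas TL2 had 2013 scaled reads beside 42.0 FPKM. At the ratio of the other libraries the TL1 reads would correspond to 214 FPKM. The other 5 members had a ratio in TL1 within 0.938 to 0.989 of the median of their other libraries. Which of both *FOS* values of TL1 was the one measured cannot be told from the table, and the level of *FOS* in that library is uncertain by a factor of 4.20.

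**Figure D2:**
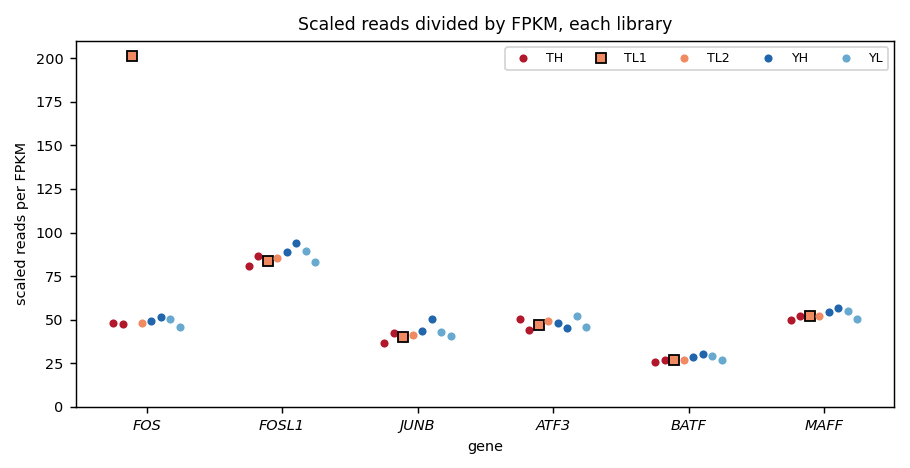
Scaled reads divided by FPKM (vertical axis, linear, starting at 0) for the 6 genes (horizontal axis), 1 point for each library, with TL1 as an outlined square. The *FOS* point of TL1 lies at 201, and the other 7 *FOS* points lie between 46.0 and 51.5.

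The sign of the altitude difference in Tibetan hearts depended on which measure was used. With FPKM, *FOS* was higher in TH than in TL by 0.54 ± 0.33 (limma adjusted p = 0.586), and both TH libraries were above both TL libraries, which held for 24% of all genes tested. With scaled reads the sign turned, to -0.49. The altitude difference averaged over breed turned as well, from 0.20 to -0.30, as did the interaction, while YH vs YL, which does not use TL1, was -0.14 from FPKM and -0.11 from scaled reads, but 0.06 from FPKM without YL2. Without YL2 the averaged altitude difference was 0.30 from FPKM. The breed difference at low altitude kept its sign, with 2.96 from FPKM and 4.22 from scaled reads, and the TL2 library alone, where both measures go together, was at 42.0 FPKM against 4.30 and 5.98 FPKM in YL.

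*FOSL1* (ENSSSCG00000012967, chromosome 2, 5534024 to 5541866) encodes a FOS protein without the strong activation domain of FOS itself, and it was low in all hearts. It was at 7.54 and 3.84 FPKM in TH and at 3.38 and 3.09 FPKM in TL. It was at 2.09 and 3.43 FPKM in YH and at 2.75 and 2.13 FPKM in YL. Both TH libraries were above every Yorkshire library, but YH2 was above both TL libraries, so the breeds overlapped. The averaged breed difference was 0.55 ± 0.23 (limma adjusted p = 0.368) and 0.49 without YL2, and the exact permutation test gave p = 0.0857. The difference in TH vs YH, 0.80 ± 0.33, was 0.39 without TH1 and 1.21 without TH2, so its size rested on which TH library was used.

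*JUNB* (ENSSSCG00000013735, chromosome 2, 66505143 to 66507024) was the only JUN gene with a row. JUNB pairs with FOS proteins and is known to act on some promoters as a brake on JUN. It was at 51.1 and 53.6 FPKM in TH and at 22.0 and 16.3 FPKM in TL. It was at 6.44 and 18.1 FPKM in YH and at 9.81 and 8.04 FPKM in YL. The 2 TH libraries were the highest of all, and 3 of 4 Tibetan libraries were above every Yorkshire library, the exception being TL2, which lay below YH2.

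*JUNB* differed by 2.16 ± 0.43 in TH vs YH (limma adjusted p = 0.107), by 1.01 ± 0.43 in TL vs YL (0.557) and by 1.42 ± 0.43 in TH vs TL (0.311). None of these passed the threshold, nor did the averaged breed difference of 1.59 ± 0.30 (limma adjusted p = 0.0973), which was 1.52 without YL2. Under scaling by the FPKM sum TH vs YH was 1.08, or 1.59 relative to the median of all genes. The averaged difference was then 0.84, or 1.23 relative to the median. From FPKM as deposited, TH vs YH was 1.48 without YH1 and 2.84 without YH2. The exact permutation test over breeds gave p = 0.0571. The summed atrial markers also stood highest in TH: 5 of 5 were found, none at 0, and they summed to 5386 and 6625 FPKM in TH against 394 to 2626 FPKM in the other libraries. *MYL7* and *NPPA* made up most of that sum, and *MYL4* and *KCNJ3* had lower means in TH than in TL. Their part in the TH values of *JUNB* and *FOS* was not tested.

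*ATF3* encodes a stress-induced factor that pairs with JUN proteins and, alone as a homodimer, is known as a repressor. The gene (ENSSSCG00000015595, chromosome 9, 143690555 to 143703872) was at 38.8 and 50.0 FPKM in TH and at 144 and 180 FPKM in TL. It was at 5.24 and 9.16 FPKM in YH and at 13.5 and 5.17 FPKM in YL. As with *FOS*, every Tibetan library was above every Yorkshire library, by at least 2.87 times. It was highest in the lowland Tibetan hearts, where the lower library was 2.89 times the higher TH library. *FOS* had its highest mean in TH by FPKM, but in TL by scaled reads, with 10252 and 2013 in TL against 2581 and 4056 in TH.

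The averaged breed difference of *ATF3* was 3.30 ± 0.31, beside 3.30 ± 0.24 for *FOS*. Its limma adjusted p was 0.0190, so it did not meet the call, and the exact permutation test gave the smallest possible p of 0.0286. Within altitudes the difference was 2.50 ± 0.44 in TH vs YH (limma adjusted p = 0.0905) and 4.10 ± 0.44 in TL vs YL (0.120). In TH vs YH it was 1.39 under scaling by the FPKM sum, or 1.89 relative to the median of all genes. In TL vs YL the value moved from 3.48 without YL2 to 4.72 without YL1, and without YL1 it was called, with a limma adjusted p of 0.00140. The averaged difference was called as well without YL1 (3.61, limma adjusted p = 0.00138), and it was 2.99 without YL2 (0.0106). Without YL1 the YL group is YL2 alone, which is assumed to vary like the other groups, and limma then called 2.56% of all genes in TL vs YL and 1.91% in the average, so these calls are not read as support.

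Between the Tibetan groups *ATF3* was lower in TH than in TL, with a log2 difference of -1.85 ± 0.44 and a limma adjusted p of 0.244. Both TH libraries lay below both TL libraries, which held for 24.5% of all genes tested. The Yorkshire groups overlapped, since YL1 at 13.5 FPKM was the highest and YL2 at 5.17 FPKM the lowest Yorkshire library. The interaction of breed and altitude was -1.60 ± 0.63, with an unadjusted p of 0.0391 and a limma adjusted p of 0.433, and -0.98 without YL2, so a different breed effect at the 2 altitudes was not shown after adjustment.

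*BATF*, a factor of lymphocytes and other immune cells that pairs with JUN proteins and lacks an activation domain, was the only member with a negative averaged breed difference, and it was near the detection limit. The gene (ENSSSCG00000030582, chromosome 7, 104503136 to 104524774) starts 206014 bases after the end of *FOS*. It was at 0.819 and 0.569 FPKM in TH and at 0.376 and 0.799 FPKM in TL. It was at 1.03 and 1.37 FPKM in YH and at 0.972 and 1.58 FPKM in YL. Every Tibetan library was below every Yorkshire library, which held for 3.47% of all genes tested. *BATF* passed the filter of 1 FPKM in 2 libraries through Yorkshire libraries alone, so it was tested only through the breed where it was high, and the order is not read as a result. It was also lost under scaling by the FPKM sum. The averaged difference was -0.45 ± 0.18 (limma adjusted p = 0.352), and -0.35 without YL2. The exact permutation test gave the smallest possible p of 0.0286 here too, as it must for any gene whose breeds do not overlap.

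Leukocyte markers were present in the same libraries. All 9 were found and none was at 0. They summed to 40.1 and 52.9 FPKM in YH and to 21.8 to 25.5 FPKM in the other 6 libraries, so the sum was high with *BATF* in YH but not in YL. The median averaged breed difference of the 9 was -0.43, with 7 of 9 lower in Tibetan hearts. It was -1.16 in TH vs YH (6 of 9 lower) and -0.001 in TL vs YL (5 of 9 lower). Single markers did not all follow the sum: *CD79A* was highest in TH1 and *CD14* in YL1. *CD3E*, a T cell marker, was at 0.858 to 2.11 FPKM in Tibetan and 2.13 to 9.08 FPKM in Yorkshire libraries. *CD3E* was the only 1 of the 9 with the breed order of *BATF*, and this order was lost under both scalings. Their part in the *BATF* values was not tested. In tissue RNA, fewer cells of a type and less RNA in each cell cannot be told apart.

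*MAFF* (ENSSSCG00000030165, chromosome 5, 6966173 to 6978549) encodes a small MAF protein, which lacks an activation domain and pairs with NRF and FOS proteins. It was at 9.98 and 10.3 FPKM in TH and at 9.13 and 8.30 FPKM in TL. It was at 6.05 and 6.70 FPKM in YH and at 11.4 and 3.04 FPKM in YL. The highest and the lowest library of *MAFF* were both YL libraries. The averaged breed difference was 0.52 ± 0.34 (limma adjusted p = 0.529; exact permutation p = 0.171), with 0.12 without YL2 and 0.93 without YL1. In TL vs YL it was 0.45 ± 0.48, with -0.36 without YL2 and 1.27 without YL1, so no direction can be given for the lowland hearts and the averaged size rests on which YL library is used.

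**Figure D3:**
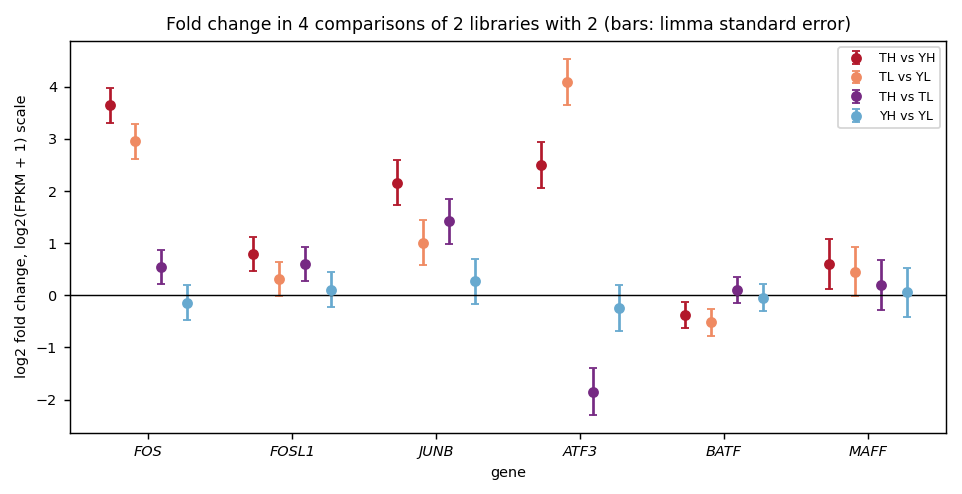
Log2 fold change on the log2(FPKM + 1) scale (vertical axis) of the 6 genes (horizontal axis) in the comparison of breeds at high (TH vs YH) and low (TL vs YL) altitude and of altitudes in Tibetan (TH vs TL) and Yorkshire (YH vs YL) hearts; bars are limma standard errors from 2 libraries in each group. *FOS* lies at 3.64 and 2.96 in the breed comparisons, *ATF3* at 2.50 and 4.10, and all 6 genes lie within 0.27 of 0 in YH vs YL.

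In TH vs YH 0 of 6 members were called by limma, with 4 at an unadjusted p under 0.05, while 0.0336% of all genes were called and 16.2% had such a p. In TL vs YL 0 members were called, with 2 at an unadjusted p under 0.05, against 0.00839% and 8.94% of all genes. Without YL2 the TL vs YL difference was 3.16 for *FOS* (limma adjusted p = 0.0821), 0.88 for *JUNB* (0.700), 0.18 for *FOSL1* (0.954) and -0.33 for *BATF* (0.812). The 6 members' median log2 fold change was 1.48 in TH vs YH and 0.73 in TL vs YL, beside -0.03 and 0.02 over all genes tested. In the average over altitudes it was 1.07 beside -0.01. Without YL2 the medians were 0.53 in TL vs YL and 1.005 in the average. Heart muscle markers had a median of 0.72 in TL vs YL (8 of 8 higher) and of -0.34 in TH vs YH (3 of 8 higher). Their part in the member values was not tested. Over all 8 libraries 2 members, *FOS* and *ATF3*, had every Tibetan above every Yorkshire library, an order found in 4.57% of all genes tested.

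No member was called between altitudes. In TH vs TL limma called 0 of 6 members and 0.0504% of all genes, with 2 members, *JUNB* and *ATF3*, and 11.3% of all genes at an unadjusted p under 0.05. These 2 went opposite ways, and the comparison uses the TH libraries that also enter TH vs YH. In YH vs YL limma called 0 members and 0% of all genes, and 0 members but 5.97% of all genes had an unadjusted p under 0.05. Without YL2 the YH vs YL values ran from -0.87 (*ATF3*) to 0.15 (*BATF*), and limma called 0 members. The members' median was 0.37 in TH vs TL and 0.01 in YH vs YL. For altitude averaged over breed 0 members and 0.0336% of genes were called, with 2 members and 7.22% of genes at an unadjusted p under 0.05, and for the interaction 0 members and 0.0336% of genes, with 1 member and 10.9% of genes at such a p. Without YL2, *MAFF* went from 0.13 to -0.28 in altitude averaged over breed and from 0.14 to 0.95 in the interaction. *BATF* went from 0.15 to -0.05 in the interaction, while *FOSL1* and *JUNB* kept their signs in both comparisons. Limma on scaled reads called 0 members in each comparison, but also 0% of all genes.

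The makeup of the family differed between groups as well as its level. The 6 genes summed to 162 and 204 FPKM in TH, 230.1 and 250.0 FPKM in TL, 24.2 and 44.6 FPKM in YH, and 42.8 and 25.9 FPKM in YL. In TL, *ATF3* made up 62.7% and 71.8% of this sum, against 23.9% and 24.5% in TH. With *FOS* in TL1 taken from its scaled reads, the TL1 sum would be 393 FPKM, of which *ATF3* would be 36.7% and *FOS* 54.4%, so the order of both genes in TL1 rests on the uncertain value. *FOS* made up 33.2% and 42.0% in TH, where *JUNB* added 31.5% and 26.3%. In the Yorkshire hearts no gene passed 40.5%, and *MAFF*, which was at most 6.16% in a Tibetan library, held 11.7% to 26.7%. *ATF3* FPKM over *FOS* FPKM was 0.721 and 0.585 in TH and 2.84 and 4.28 in TL, the TL1 ratio being 0.675 with *FOS* from scaled reads. It was 1.54 and 1.55 in YH, and 3.14 and 0.864 in YL, so the YL libraries lay far apart, with YL1 above TL1. These shares and ratios were described, not tested, and leave out the 4 genes with no row.

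**Figure D4:**
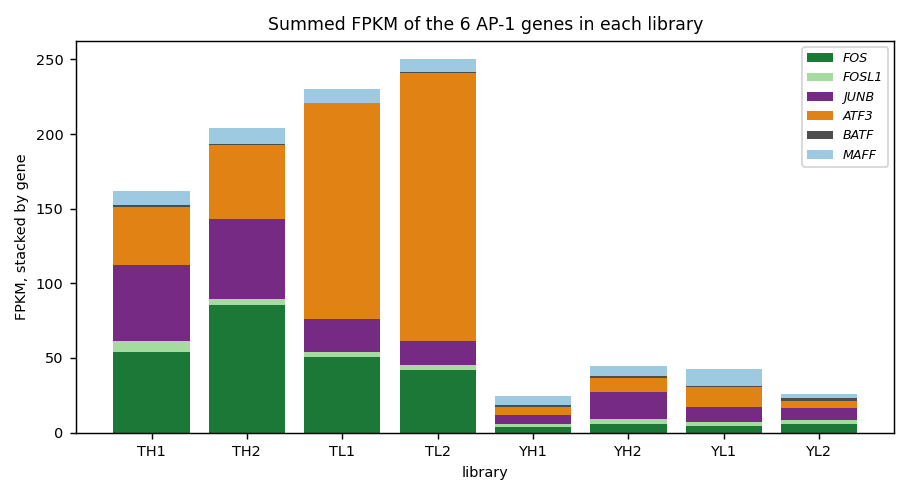
FPKM of the 6 AP-1 genes (vertical axis, linear, starting at 0), stacked by gene for each of the 8 libraries (horizontal axis). The Tibetan stacks reach 162 to 250.0 FPKM and the Yorkshire stacks 24.2 to 44.6 FPKM, with *ATF3* as the widest band in TL1 and TL2. In TL1 that holds for the deposited *FOS* FPKM, and with *FOS* from its scaled reads the stack would reach 393 FPKM and *FOS* would be wider.

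Other immediate early genes were set beside the AP-1 genes, since they answer the same stimuli. Of 20 tested from a list of 26 outside AP-1, 10 had every Tibetan library above every Yorkshire library, against 4.57% of all genes tested, and 0 had the reverse order, against 3.47%. Under scaling by the FPKM sum 0 of 20 had either order. The 10 were *EGR1*, *EGR2*, *NR4A1*, *NR4A2*, *IER3*, *IER5*, *BTG2*, *DUSP1*, *CYR61* and *RHOB*. The list's median averaged breed difference was 1.02 on the log2 scale, beside -0.01 over all genes, and 20 of 20 genes had a positive value, but limma called 0 of them, against 0.0504% of all genes.

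The 4 of the list with the highest mean FPKM were *RHOB*, *DUSP1*, *BTG2* and *CYR61*. *CYR61*, a secreted matrix protein, was at 178 and 170 FPKM in TH and 95.9 and 65.3 FPKM in TL against 23.0 to 43.9 FPKM in the Yorkshire libraries, a difference of 1.91 ± 0.20 (limma adjusted p = 0.0232). *DUSP1*, a phosphatase that switches off MAP kinases, was at 115 to 232 FPKM in Tibetan and 32.0 to 60.1 FPKM in Yorkshire libraries (1.78 ± 0.26, limma adjusted p = 0.0530). *BTG2*, which slows the cell cycle, was at 96.6 to 253 FPKM against 9.93 to 59.9 FPKM (2.32 ± 0.54, limma adjusted p = 0.146). *RHOB*, a small GTPase, was at 129 to 256 FPKM against 71.4 to 122 FPKM (0.78 ± 0.22, limma adjusted p = 0.208). Without YL2 these 4 differences were 1.84 for *CYR61*, 1.56 for *DUSP1*, 1.83 for *BTG2* and 0.59 for *RHOB*.

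Most of the 10 genes kept the order by breed under median-ratio scaling and with scaled reads, but the list lost it under scaling by the FPKM sum. From 10 of 20 as deposited, the count was 12 without YL2 (8.07% of all genes), 13 without both TH libraries (11.8%), 9 under median-ratio scaling (3.28%), 9 with scaled reads (3.89%) and 0 when each library's FPKM were divided by their sum (0.252%). That sum ran from 1563940 in YL2 to 8559104 in TH1, whereas the median-ratio factors ran from 0.849 in YL2 to 1.18 in TH1. Dividing by the sum moved the median averaged breed difference of all genes by -0.37. It left *FOS* and *ATF3* with every Tibetan above every Yorkshire library. Relative to the moved median, *FOS* differed by 2.73 and *ATF3* by 2.87 under that scaling.

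**Figure D5:**
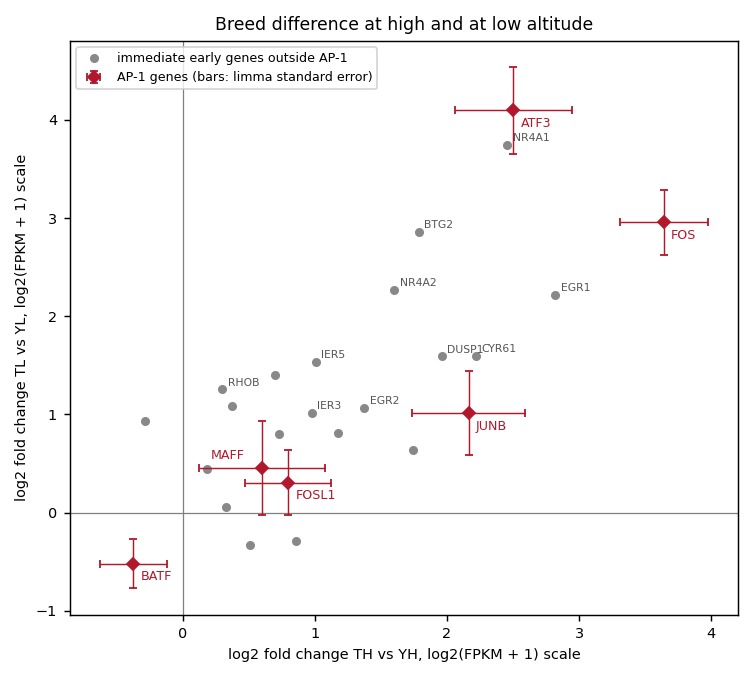
Log2 fold change in TH vs YH (horizontal axis) and in TL vs YL (vertical axis), both on the log2(FPKM + 1) scale, of the 6 AP-1 genes (diamonds, bars are limma standard errors) and of 20 immediate early genes outside AP-1 (grey points, named where every Tibetan library was above every Yorkshire library). *FOS* lies farthest right at 3.64 and *ATF3* highest at 4.10, with *NR4A1* and *EGR1* among the named grey points nearest to them.

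Genes most like *FOS* were found by the mean absolute difference, over the 8 libraries, of log2(FPKM + 1) profiles centred on their mean. Among the 8 nearest of 11912 were *SLPI* (0.31), *EGR1* (0.39), ENSSSCG00000027743 (0.53), *NR4A1* (0.57), *CTGF* (0.61), ENSSSCG00000022522 (0.65) and *CYR61* (0.70), where the median gene was at 1.66. These distances use the uncertain *FOS* FPKM of TL1. With *FOS* in TL1 taken from its scaled reads, the nearest were *NR4A1* (0.50), *EGR1* (0.66) and *SLPI* (0.67), and *CYR61* left the nearest 8. Without TL1 they were *SLPI* (0.33) and *EGR1* (0.40) again, with *NR4A1* at 0.49. *SLPI*, a protease inhibitor, was at 113 to 135 FPKM in Tibetan and 11.3 to 24.1 FPKM in Yorkshire libraries. *EGR1*, a zinc finger immediate early factor, was at 51.1, 65.5, 45.6 and 30.5 FPKM in TH1, TH2, TL1 and TL2 and at 4.58, 11.5, 4.95 and 10.4 FPKM in YH1, YH2, YL1 and YL2. *NR4A1*, an orphan nuclear receptor, was at 47.3 and 102 FPKM in TH and 266 and 106 FPKM in TL, against 10.3 to 13.6 FPKM in Yorkshire libraries, and was also the gene nearest to *ATF3*. Among the members, *ATF3* ranked 18 and *JUNB* 22 in likeness to *FOS*, whereas *FOSL1* ranked 770, *MAFF* 862 and *BATF* 10364. With *FOS* in TL1 from its scaled reads *ATF3* ranked 5 and *JUNB* 30. Without TL1 *JUNB* ranked 20 and *ATF3* 25, so the order of both depends on that library.

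The rest of the pathway was read from lists of AP-1 relatives, upstream regulators and targets. Beyond the 10 names, 22 bZIP factors were tested, the wider class with the same DNA-binding fold. They include ATF and MAF proteins, such as *ATF4* and *MAFK*, so the list is not outside the family as defined above. Of these 22, 0 had breeds that did not overlap in either direction (4.57% and 3.47% of all genes tested did). Limma called 0 of them, and their median averaged breed difference was -0.04. *ATF4*, the translation-controlled stress factor and the highest of them, was at 128 to 276 FPKM in Tibetan and 85.4 to 213 FPKM in Yorkshire libraries (0.45 ± 0.34, limma adjusted p = 0.590). *NFE2L1*, *CEBPD* and *MAFK*, the next by level, differed by -0.16, -0.05 and 0.01. Without YL2 *MAFK* turned to -0.22, *NFE2L1* was at -0.29, *CEBPD* at -0.16 and *ATF4* at 0.12. The count without overlap was then 1 above (*CREB3*) and 1 below (*CEBPB*), where 8.07% and 6.56% of all genes were. Both are named after their values were seen.

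Of 27 tested kinases and regulators that act upstream of AP-1, 3 had every Tibetan above every Yorkshire library (4.57% of all genes tested did) and 1 had the reverse (3.47%), with a median averaged difference of 0.11 and 0 called by limma. *MAPK12*, *MAP2K2* and *COPS5*, among the highest by level, differed by 0.23, 0.20 and 0.21, and by -0.02, 0.04 and 0.12 without YL2. The 4 that did not overlap are named after their values were seen. *SRF*, the factor that binds the serum response element of the *FOS* promoter, was at 28.6 to 48.9 FPKM in Tibetan and 18.1 to 25.2 FPKM in Yorkshire libraries (0.70 ± 0.15, limma adjusted p = 0.121; 0.61 without YL2). *RPS6KA2* differed by 0.58, *MAP2K5* by 0.45 and, lower in Tibetan hearts, *MAP2K4* by -0.12. *SRF* and *MAP2K4* overlapped between breeds under median-ratio scaling, *MAP2K5* and *MAP2K4* with scaled reads, and under scaling by the FPKM sum all 4 did.

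Of 23 tested genes known as AP-1 targets, 1 had every Tibetan above every Yorkshire library, a share near the 4.57% of all genes tested, 0 had the reverse, and limma called 0. That gene was *VIM*, named after its value was seen, an intermediate filament of fibroblasts and other non-muscle cells, at 192 to 337 FPKM against 89.4 to 131 FPKM (1.33 ± 0.18, limma adjusted p = 0.0415; 1.36 without YL2), an order lost under scaling by the FPKM sum. Fibroblast markers, 5 of 5 found and none at 0, summed to 174 to 557 FPKM in Tibetan and 181 to 299 FPKM in Yorkshire libraries. Their median averaged breed difference was 1.16, with 4 of 5 higher in Tibetan hearts. It was 0.59 in TH vs YH (3 of 5 higher) and 1.39 in TL vs YL (5 of 5 higher). *COL1A2* and *LUM*, 2 of 5, had every Tibetan above every Yorkshire library, against 4.57% of all genes tested. That order was lost for *LUM* under median-ratio scaling and for both under scaling by the FPKM sum. *ACTC1* (1 of 8 heart muscle markers), *MYL4* (1 of 5 atrial) and *PECAM1* (1 of 4 endothelial) had the order too, and each lost it under scaling by the FPKM sum. The part of all these markers in the breed differences of *VIM*, *FOS*, *ATF3* and the other immediate early genes was not tested. Without YL2 the count of targets was 2 above (*SPP1* and *VIM*) and 0 below, where 8.07% and 6.56% of all genes tested were. Without the TH libraries it was 2 above and 2 below, where 11.8% and 10.1% of all genes were. The list's median was 1.28 in TH vs YH and 0.21 in TL vs YL. That of the 5 atrial markers, whose sum was highest in TH, was 2.34 in TH vs YH and 0.98 in TL vs YL, and *NPPA* counts in both lists. The part of the atrial markers in the target values was not tested. *NPPA*, a natriuretic peptide of the atrium and of the loaded ventricle, was at 2263 and 2146 FPKM in TH and 23.1 to 108 FPKM elsewhere (5.53 ± 0.68 in TH vs YH, limma adjusted p = 0.0448). *NPPB*, its ventricular relative, was at 4963 and 3264 FPKM in TH and 7.75 to 278 FPKM elsewhere (6.18 ± 1.31, limma adjusted p = 0.122).

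The 2 other targets named for their level were *ACTA1* and *ITGA5*. *ACTA1*, the skeletal actin of the fetal heart programme, was at 21387 and 30005 FPKM in TH and 5833 to 15576 FPKM elsewhere (1.40 ± 0.58 in TH vs YH, limma adjusted p = 0.303). *ITGA5*, a fibronectin receptor subunit, was at 202 and 173 FPKM in TH and 2151 FPKM in YH2, a value whose scaled reads were 0.0837 of those its FPKM would give, so no direction is given for it.

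Red cell markers, 4 of 4 found and none at 0, summed to 648 to 1724 FPKM in Tibetan and 299 to 605 FPKM in Yorkshire libraries. That sum was nearly all *HBB*, the beta globin, at 642 to 1708 FPKM in Tibetan and 290 to 599 FPKM in Yorkshire libraries, an order lost under scaling by the FPKM sum. *ALAS2*, *AHSP* and *SLC4A1* overlapped between breeds, and *SLC4A1* was at 5.07 FPKM in YL2. Their part in the breed differences of *FOS*, *ATF3* and the other immediate early genes was not tested.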

How the data were processed

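The authors pooled RNA of 4 pigs for each library, aligned reads to Sscrofa10.2 (the submitters' processing notes name Bowtie 0.12.5, TopHat2 2.0.9 and DESeq 1.10.1) and deposited, for each gene and library, FPKM and size-scaled read counts (a signal). The authors' fold changes and group means were not used. The scaled reads were multiples of 1 value for each library, within 0.1 of a whole read for at least 99.7% of values under 40 reads, which gave the depths. Genes with at least 1 FPKM in 2 libraries were tested with limma 3.58.1 in R 4.3.3 (trend, log2(FPKM + 1), 4 groups, 4 residual degrees of freedom), Benjamini-Hochberg adjusted, with calls at adjusted p under 0.01 and log2 fold change above 1. Exact permutation tests compared 4 with 4 libraries for each of the 6 members. The fit was also run on simulated normal values with a known breed difference. That run held no library like YL2 and no discordant FPKM, so it does not bear on the stability of these calls. P-values measure the spread between pools.

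The named genes are the members, the 8 nearest to *FOS* and the 4 highest of each list, and some that this rule names are not reported here. Where a symbol had several rows, the highest was used. Members and lists were chosen with earlier results of these data known. The alternatives tried were pseudocount, filters, scalings, thresholds, a replicate block, each library left out, and, chosen after seeing the data, scaled reads and the overlap counts without YL2 or TH.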

Additional observations from a re-analysis of the deposited data

Results flagged for a closer look

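*FOS* in TL1 had 201 scaled reads per FPKM, against 46.0 to 51.5 in the other 7 libraries, a signal in the read column that the FPKM comparisons did not use. It was the only one of 6935 genes with at least 100 scaled reads in every library whose ratio in TL1 was off by more than 2-fold.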

How the results depend on the processing

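The number of members called by limma moved as follows from 1 for the averaged breed difference. It was 2 under FPKM-sum scaling (0.546% of all genes called), with a mean of at least 10 FPKM (0.234%), or at adjusted p under 0.05 (0.453%), against 0.0504% as reported. It was 0 under median-ratio scaling (0.0504%), with no filter (0.0211%), or with scaled reads (0%). It was 3 at unadjusted p under 0.01 (1.91%), and 0 to 2 with 1 library left out, the 2 coming without YL1 (1.91%). From 0, TH vs YH went to 1 at adjusted p under 0.05 (0.26%) and to 3 at unadjusted p under 0.01 (4.06%). TL vs YL went to 1 under FPKM-sum scaling (*ATF3*, 0.814%), to 2 at unadjusted p under 0.01 (2.03%), and to 0 to 1 with 1 library left out, the 1 coming without YL1 (2.56%). TH vs TL went to 1 at unadjusted p under 0.01 (2.57%).

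FPKM-sum scaling reversed *FOSL1* (-0.018) and *MAFF* (-0.18) in TH vs YH, *FOS* (-0.049), *BATF* (-0.052) and *MAFF* (-0.24) in TH vs TL, and *MAFF* (-0.011) in the averaged breed difference, with the median of all genes moved by -0.47 in TH vs YH, -0.25 in TH vs TL and -0.37 in the average. Relative to that median these 6 kept their reported sign: *FOSL1* 0.49 and *MAFF* 0.32 in TH vs YH, *FOS* 0.22, *BATF* 0.22 and *MAFF* 0.03 in TH vs TL, and *MAFF* 0.37 in the average. *BATF* in TH vs YH turned to 0.12 relative to the median. The same scaling turned *FOS* (-0.09), *BATF* (-0.07) and *MAFF* (-0.07) in altitude averaged over breed, and *FOSL1* (-0.04) and *MAFF* (-0.34) in the interaction, where *MAFF* was at -0.07 relative to the median too. Scaled reads reversed *FOS* in TH vs TL (-0.49). Leaving out 1 library gave -0.36 to 1.27 for *MAFF* in TL vs YL and -0.091 to 0.30 for *BATF* in TH vs TL. For *MAFF* and *BATF* the cause of the changes with 1 library left out was not tested.

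With the replicate block the averaged breed count was 1, with *FOS* at a limma adjusted p of 0.00940, and it was 0 in each of the other 6 comparisons. Samples of 1 number shared only that number, with deviations correlated at -0.08 to 0.12. The planned edgeR (TMM and RLE) and DESeq2 tests were not run, because a few scaled values lay far below the value of 1 read and the column did not pass as whole reads.

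With 2 libraries in each group and 4 residual degrees of freedom, differences within 1 altitude were measured with a standard error of 0.25 to 0.48 on the log2 scale. *BATF* rested on 10 to 59 reads in a library.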

Other observations

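Of 55480 values compared (6935 genes in 8 libraries), 14 in 9 genes had scaled reads per FPKM off by more than 2-fold. The genes were *A2M*, *AIM1*, *CDH2*, *CLU*, *FOS*, *ITGA5*, *MRC2*, *PRRC2A* and *TGFB2*, named after their values were seen. They include *TGFB2* in YH2, with 5.34 FPKM beside scaled reads 4.68 times those expected from its other libraries, and *ITGA5* in YH2, with 2151 FPKM beside scaled reads 0.0837 times those expected.

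*SLPI* and *CTGF*, which are in no list, were among the 8 genes nearest to *FOS*. *CTGF*, a matrix protein, was at 81.2 to 192 FPKM in Tibetan and 28.1 to 42.2 FPKM in Yorkshire libraries.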
